A study of Mus musculus with 8 samples.

Results

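RNA levels in the tibialis anterior, a fast muscle of the lower leg, were compared between SCA17 knock-in (KI) mice and wild-type (WT) mice aged 3 months. Spinocerebellar ataxia type 17 (SCA17) is a dominant disease in which the polyglutamine tract of TBP, the protein that binds the TATA box, is expanded. The comparison used 4 of the study's 8 arrays, chosen by their titles and tissue labels: KI muscle replicates 94 and 97 and WT muscle replicates 95 and 96. The other 4 arrays held cerebellum of the same genotypes and carried the same replicate numbers. Total RNA was measured on Affymetrix Mouse Gene 1.0 ST arrays. According to the labels 3 mice of each genotype were used, whereas each genotype has 2 arrays per tissue here, and no label says whether an array is 1 animal. The sources used here do not give the strain, the sex, the repeat length or whether the KI allele is present in 1 or 2 copies, and the labels set KI and WT apart by genotype alone. The p values therefore measure the spread between these arrays, which may be partly technical.

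TBP binds the TATA element of promoters within the complex TFIID and also serves RNA polymerases I and III, so every nuclear gene class depends on it. In muscle fibres, transcription is further set by E-box-binding myogenic factors, by nerve activity and by metabolic signals such as insulin. The tibialis anterior of the mouse is made mostly of fast glycolytic fibres, with little slow muscle, and also holds connective tissue, vessels, nerve endings and resident macrophages. Because the whole muscle was measured, fewer cells of a type and less RNA per cell cannot be told apart.

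Levels are deposited log2 values of 1 probe set per gene, and a difference of 1 on this scale is a factor of 2. Where 4 levels of a gene are given, they stand in the order KI 94, KI 97, WT 95 and WT 96. Of 19938 named genes, 13933 were tested, having reached the 40th percentile of an array's probe sets on at least 2 of the 4 muscle arrays. A gene is called higher or lower where the Benjamini-Hochberg adjusted p of limma, over the 13933 genes, was under 0.05, and the verbs rose and fell are used of called genes. Errors given with a difference are standard errors of the fit. Array medians were 5.44 and 5.4 in KI and 5.47 and 5.44 in WT muscle. The 2 KI arrays correlated over probe sets with r = 0.982 and the 2 WT arrays with r = 0.977, and WT 96 and KI 94, of different genotypes, also reached 0.982. The first principal component of the tested genes held 56.7% of the variance and placed KI at -15.2 and -16.6 and WT at 19.8 and 12. The second held 23% and separated KI 94 (14.2) from KI 97 (-14.3).

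The tissue label was checked against the defining genes of muscle fibres. Acta1, skeletal actin, lay between 11.80 and 12.36 on the muscle arrays against a mean of 5.72 in the cerebellum. Myh4, the fastest myosin heavy chain, lay between 11.41 and 12.20 against 4.81. Tbp itself was at 6.80, 6.94, 6.70 and 6.81, with the genotypes overlapping (difference 0.11 ± 0.12; adjusted p = 0.634). Its probe set does not tell the expanded allele from the normal one, so it is no check of the genotype. Of the 10 genes nearest to Tbp on chromosome 17 that the array names, 8 were tested (Ermard, Dll1, Fam120b, Psmb1, Pdcd2, Prdm9, Chd1 and Rgmb) and limma called 0 of them, 0 having an unadjusted p under 0.05. Psmb1, a proteasome subunit beside Tbp, was at 8.32, 8.27, 8.19 and 8.01, above in both KI arrays but not past the threshold.

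Of the 13933 genes, 495 were called (3.55%), 371 higher (2.66%) and 124 lower (0.89%) in KI muscle. The rises and falls lay at different levels: the median WT level was 6.67 for genes that rose, 8.36 for genes that fell and 6.41 for all tested genes. The falls thus included several of the most abundant muscle RNAs, such as Car3, Ampd1, Mylk2 and Mylk4, whereas 26 of the rises started with both WT arrays under the 40th percentile, where the array's background limits the fold. Among the calls, 53 rises and 30 falls reached 2-fold, and 9 rises and 4 falls reached 3-fold. The genes that rose stood a median of 0.68 and 0.67 above the WT mean in KI 94 and KI 97. Those that fell stood -0.72 and -0.75 from it. The genes were called on these same arrays, which favours genes whose KI arrays agree, so the likeness of these medians is a description only. As a background for counts given below, the 2 KI arrays were above the 2 WT arrays without overlap in 30.3% of tested genes and below in 19.9%. For counts of called list members the background is 3.55%, or 2.66% higher and 0.89% lower. The 22 called genes with several probe sets had 44 others, many of them of Fat3, and 39 of these differed in the same direction.

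**Figure D1:**
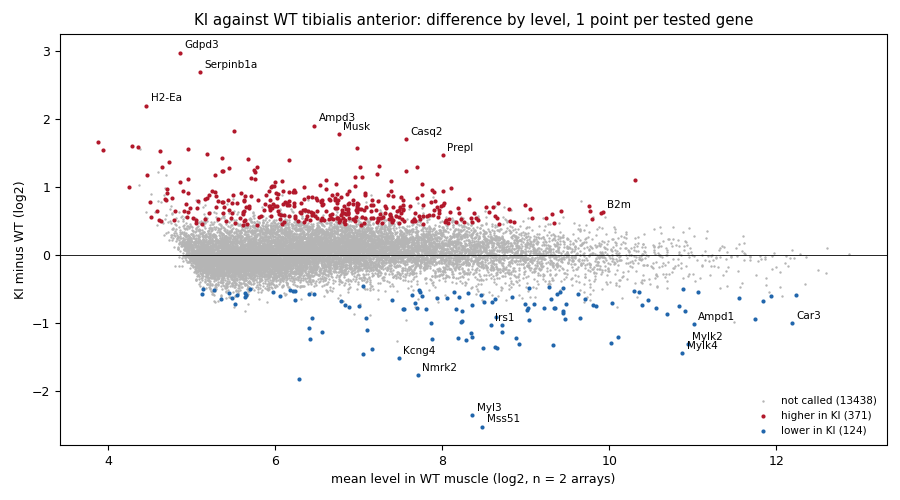
Difference between KI and WT muscle (log2) against the mean WT level (log2), 1 point per tested gene, with the 371 genes called higher in red and the 124 called lower in blue. Genes that rose cluster at low and middle levels (median WT level 6.67), and genes that fell reach the most abundant RNAs, such as Car3.

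The number of calls depended on single arrays. It was 174 without KI 94, 132 without KI 97, 105 without WT 95 and 178 without WT 96, and 62 of the 495 genes were called in all 4 of these fits, the lone array of a group being assumed to vary like the other groups. With arrays normalised to 1 distribution within muscle, 84 genes were called, and 60.7% of them were higher against 74.9% in the values as deposited. In the muscle arrays alone, without the cerebellum's share of the variance estimate, 155 were called. Without either WT cerebellum array, which changes only the variance estimate, 264 were called. Of 175 called genes chosen for naming, 66 stayed called after normalisation within muscle and 97 in the muscle arrays alone. All 175 kept their direction in each of the 20 refitted settings in which they were tested, 155 of them being tested with the filter at the 60th percentile. For most genes described below, the loss of a call on leaving out 1 muscle array is given with its adjusted p.

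Myosin light chain kinases and the light chains Myl4 and Myl3 gave some of the largest falls. Mylk4, a muscle kinase of the myosin light chain kinase family, was at 9.46, 9.41, 10.80 and 10.95 (difference -1.44 ± 0.16, 2.71-fold lower; adjusted p = 0.00369). Mylk2, the skeletal kinase that phosphorylates the regulatory light chain, was at 9.54, 9.70, 10.86 and 11.02 (2.49-fold lower; adjusted p = 0.0085). For both kinases the KI arrays lay more than 1 log2 unit below either WT array, and the replicates of a genotype lay close together. Smtnl1, a smoothelin-like protein that regulates myosin phosphatase, moved the other way, at 8.25, 8.56, 7.29 and 7.15 (2.27-fold higher; adjusted p = 0.00369). Myl4, the embryonic and atrial essential light chain, was at 7.54, 7.77, 8.81 and 8.95 (2.33-fold lower; adjusted p = 0.00638). Myl3, the slow and ventricular light chain, was at 6.11, 5.90, 8.95 and 7.77. Its 2 WT arrays differed by more than a log2 unit, yet both KI arrays were below the lower of them. Mylk4, Smtnl1, Myl4 and Myl3 were called without each muscle array in turn, and Mylk2 missed the threshold without WT 96 (adjusted p = 0.0502).

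**Figure D2:**
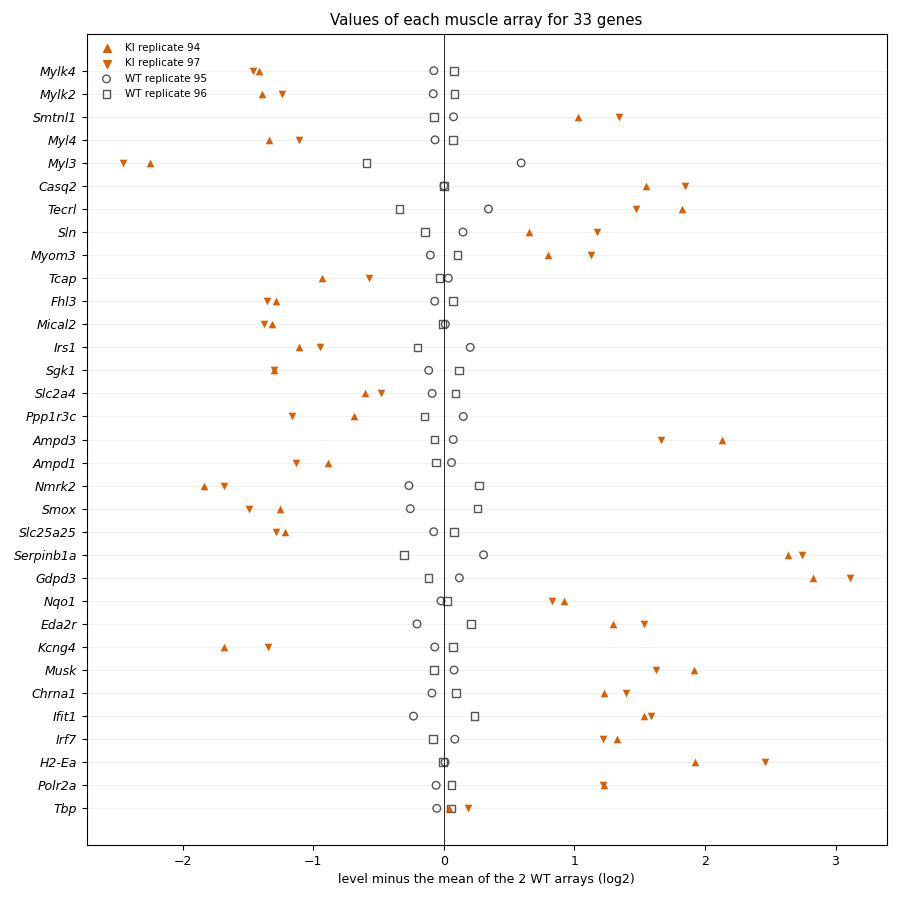
Level on each of the 4 muscle arrays minus the mean of the 2 WT arrays (log2) for 33 genes, KI as filled triangles and WT as open symbols. In every gene shown except Tbp the KI arrays lie on 1 side of both WT arrays, from about 3 units above (Gdpd3) to more than 2 below (Myl3).

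Proteins of the Z-disc and the M-band moved in both directions. Among 29 tested genes of sarcomere filaments and their assembly, 1 rose and 1 fell, with a median difference of -0.04 against 0.03 over all tested genes. Tcap, the titin cap at the Z-disc, was at 8.90, 9.26, 9.87 and 9.80 and fell 1.69-fold (adjusted p = 0.021), while Myom3, a myomesin of the M-band, was at 7.40, 7.73, 6.50 and 6.71 and rose 1.95-fold (adjusted p = 0.0126). In neither did the genotypes overlap. Among 25 Z-disc and LIM-domain genes, 2 fell and 2 rose. Fhl3, a LIM protein of muscle, was at 8.04, 7.97, 9.26 and 9.40 (2.50-fold lower; adjusted p = 0.00158), and Ankrd23, a titin-bound ankyrin repeat protein, fell 1.91-fold. The actin crosslinkers Palld and Flnc rose 1.64-fold and 1.65-fold. Outside the lists, Mical2, which oxidises actin in the nucleus, had near-identical replicates at 7.31, 7.25, 8.64 and 8.62 (2.55-fold lower; adjusted p = 0.0012). Ky, a protein needed for muscle growth and junction maturation, was at 7.25, 7.23, 8.14 and 8.31 (1.98-fold lower; adjusted p = 0.00374). Fhl3, Mical2 and Ky were called without each muscle array in turn. Flnc lost its call whichever muscle array was left out (adjusted p from 0.0527 to 0.154). Tcap lost its call without KI 94 (0.0946), WT 95 (0.118) or WT 96 (0.0708). The call of Myom3 was lost without KI 97 (0.067) or WT 95 (0.0852). That of Ankrd23 was lost without KI 94 (0.0652) or WT 96 (0.0575), and that of Palld without KI 94 (0.0946) or WT 95 (0.116).

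Genes of slow, cardiac and developing muscle did not move as 1 group. Of 22 tested, 3 rose and 2 fell, the falls being Myl3 and Myl4, and the median difference was -0.08. Casq2, the calcium-storing protein of slow and cardiac muscle, was at 9.12, 9.42, 7.57 and 7.57 (difference 1.70 ± 0.16; adjusted p = 0.00158), with both KI arrays far above 2 nearly identical WT arrays. Tecrl, an endoplasmic reticulum protein of heart and muscle, was at 5.70, 5.35, 4.21 and 3.53, and Sln, the calcium pump inhibitor sarcolipin, at 5.35, 5.87, 4.85 and 4.55 (1.88-fold higher; adjusted p = 0.0286). Both had WT levels under the 40th percentile of the arrays. In the same list Actc1, cardiac actin, differed by -0.44, Myh7, the slow myosin heavy chain, by -0.41 and Myl2, the slow regulatory light chain, by -0.41, with adjusted p of 0.13, 0.37 and 0.21, so slow myosin genes did not rise alongside Casq2. Of 28 regulators of fibre type and activity signalling, 2 rose (7.14% called against 3.55% of all tested genes). Prox1, a homeodomain factor of slow fibres, was at 5.56, 5.60, 4.85 and 5.05 (1.54-fold; adjusted p = 0.0229). Camk2d, a calcium/calmodulin-dependent kinase, rose 1.38-fold (adjusted p = 0.0412). Sox6, which represses slow fibre genes, was at 8.18, 8.27, 8.60 and 8.82, below in both KI arrays, but did not pass (difference -0.49 ± 0.11; adjusted p = 0.0534). Casq2 and Tecrl stayed called without each muscle array. Camk2d lost its call without any 1 of the 4 (adjusted p from 0.0926 to 0.188), Sln without KI 97 (0.115), WT 95 (0.0798) or WT 96 (0.109), and Prox1 without KI 94 (0.0855), KI 97 (0.1) or WT 95 (0.131).

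General markers of the muscle fibre leaned lower without a call. In a list of 12 mature myofibre markers, 0 were called by limma and 7 had an unadjusted p under 0.05. Yet 11 of the 12 were lower in KI on average and in 10 the KI arrays were below the WT arrays without overlap, with a median difference of -0.45 against 0.03 over all tested genes and 19.9% of tested genes below without overlap. The mean level over the list was 11.24 and 11.42 in KI against 11.69 and 11.80 in WT. The largest difference was that of Mb, the oxygen store myoglobin, at 10.08, 10.93, 11.47 and 11.51 (-0.98 ± 0.24; adjusted p = 0.0579). Acta1 was at 11.80, 12.02, 12.36 and 12.33 (adjusted p = 0.096), and Ckm, muscle creatine kinase, at 11.97, 11.99, 12.09 and 12.18 (adjusted p = 0.511). Other abundant fibre genes, outside the list and picked with their values in view, did fall. Actn3, the alpha-actinin of fast fibres, was at 11.38, 11.29, 11.91 and 11.97 (1.52-fold lower; adjusted p = 0.0372), and Casq1, the calcium store of fast fibres, at 11.14, 11.17, 11.79 and 11.89 (1.6-fold lower; adjusted p = 0.0199). Neither call held when any 1 muscle array was left out (adjusted p from 0.106 to 0.144 and from 0.0833 to 0.0873). What part the lower fibre markers have in the falls described here was not tested.

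The calls in the insulin pathway were falls, although more of its genes leaned upward. Of 26 tested genes of the insulin, IGF and mTOR pathway, 4 fell and 0 rose in limma, 10 having an unadjusted p under 0.05. The 4 are 15.4% of the list against 0.89% of all genes called lower. The list's median was 0.13, and the KI arrays were above the WT arrays without overlap in 12 members (46.2% against 30.3% of all tested genes) and below in 7 (26.9% against 19.9%). Irs1, the adaptor that carries the insulin receptor's signal, was at 7.47, 7.63, 8.78 and 8.38 (difference -1.03 ± 0.15; adjusted p = 0.00914), and its second probe set showed 2.08-fold less RNA. Slc2a4, the insulin-regulated glucose transporter GLUT4, was at 9.75, 9.88, 10.27 and 10.45 (1.46-fold lower; adjusted p = 0.0348). Ppp1r3c, which targets protein phosphatase to glycogen, was at 8.95, 8.48, 9.79 and 9.49 (1.90-fold lower; adjusted p = 0.0348). In these 3 genes all KI values were below all WT values. Igfbp5, a binding protein of insulin-like growth factors, fell 1.72-fold (adjusted p = 0.0417). Sgk1, a kinase downstream of the same pathway, had equal KI arrays, at 7.61, 7.61, 8.80 and 9.03 (2.47-fold lower; adjusted p = 0.0131). Phka1, the muscle subunit of phosphorylase kinase, which starts glycogen breakdown, was at 10.11, 10.05, 10.70 and 10.96 (1.68-fold lower; adjusted p = 0.0135). Pfkfb3, which makes the activator of phosphofructokinase, was at 6.48, 6.80, 7.44 and 8.32 (2.36-fold lower; adjusted p = 0.0377).

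At the entry of pyruvate into mitochondria the activating phosphatase and an inhibiting kinase moved oppositely. Pdp1, the phosphatase, was at 8.86, 9.25, 9.63 and 9.79 (1.57-fold lower; adjusted p = 0.0393), and Pdk3, the kinase, at 5.98, 5.72, 4.85 and 5.05 (1.87-fold higher; adjusted p = 0.0126). Pdp1 was the 1 call among 26 citric acid cycle and pyruvate genes, whereas Pdk3 and Phka1 belong to no list and were picked with their values in view. Of the genes in this and the preceding paragraph, Irs1 alone was called without each muscle array in turn. Calls of Slc2a4 (adjusted p from 0.0868 to 0.156) and Sgk1 (0.0531 to 0.0659) were lost without any 1 of the 4. Igfbp5 and Ppp1r3c were called without KI 94 only, reaching 0.142 and 0.199 otherwise, and Pfkfb3 was called without WT 95 only, reaching 0.158. Pdp1 was called without KI 97 only, reaching 0.169. Phka1 was called without WT 95 only, with adjusted p of 0.0533 to 0.0727 without the others, and Pdk3 missed the threshold without KI 94 (0.0614) or WT 95 (0.0833).

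The AMP deaminases of the purine nucleotide cycle moved in opposite directions. Ampd3, the AMP deaminase of red cells, was at 8.60, 8.13, 6.54 and 6.39 (difference 1.90 ± 0.16; adjusted p = 0.00127). Ampd1, the muscle isoform, was at 10.12, 9.87, 11.07 and 10.95 (difference -1.01 ± 0.20; adjusted p = 0.032). Both KI arrays thus had more Ampd3 and less Ampd1 than either WT array. Nt5c2, a nucleotidase acting on IMP, was at 6.94, 6.91, 6.32 and 6.30 (1.53-fold higher; adjusted p = 0.0226), and the other 15 of 18 tested purine genes were not called. In NAD metabolism 1 of 14 genes fell and 1 rose. Nmrk2, the nicotinamide riboside kinase of muscle, was at 5.87, 6.02, 7.44 and 7.97 (3.39-fold lower; adjusted p = 0.00179), while Aox1, an aldehyde oxidase that also oxidises nicotinamide products, was at 8.37, 8.29, 7.42 and 7.79 (1.65-fold higher; adjusted p = 0.0284). Nampt, which makes NAD from nicotinamide, differed by 0.10 (adjusted p = 0.69). Slc25a25, a calcium-dependent carrier of ATP-Mg into mitochondria, was at 7.07, 7.0, 8.21 and 8.36 (2.38-fold lower; adjusted p = 0.00141).

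Of 9 polyamine genes, Smox, which oxidises spermine, was at 7.24, 7.0, 8.23 and 8.75 (2.59-fold lower; adjusted p = 0.00611). Sat2, an acetyltransferase of the family that acts on polyamines, was at 6.44, 6.35, 5.76 and 5.60 (1.64-fold higher; adjusted p = 0.0186). Car3, the carbonic anhydrase of muscle and fat, had some of the highest levels on the array, at 11.21, 11.17, 12.11 and 12.26 (2.0-fold lower; adjusted p = 0.019). Ampd3, Nmrk2, Slc25a25 and Smox were called without each muscle array in turn. Ampd1 (adjusted p from 0.0745 to 0.163), Nt5c2 (0.0832 to 0.106), Sat2 (0.0603 to 0.086) and Car3 (0.0695 to 0.0856) lost their calls whichever was left out, and Aox1 was called without WT 96 only, reaching 0.145.

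Among all called genes the greatest fall was that of Mss51, a mitochondrial protein of fast muscle, and the greatest rise that of Gdpd3. Mss51 was at 6.01, 5.91, 9.03 and 7.93 (5.74-fold lower; adjusted p = 0.00369), both KI arrays lying well under the lower WT array, and it was called without each muscle array. Gdpd3, a glycerophosphodiesterase that splits lysophospholipids, was at 7.69, 7.97, 4.98 and 4.74, its WT arrays lying under the 40th percentile. Gpcpd1, which breaks down glycerophosphocholine, was at 9.67, 9.62, 10.26 and 10.51 (1.67-fold lower; adjusted p = 0.0215), and the other 3 tested members of the family were not called. Its call was lost without any 1 muscle array (adjusted p from 0.053 to 0.098), whereas Gdpd3 kept its call. The serpins gave 3 rises among 14 tested, and each riser belongs to the intracellular clade B. Serpinb1a, an inhibitor of neutrophil proteases, was at 7.73, 7.83, 5.4 and 4.79. Serpinb6a, an inhibitor of cathepsin G, was at 8.45, 8.48, 7.33 and 7.44 (2.12-fold higher; adjusted p = 0.00172), and Serpinb8 at 5.88, 5.47, 5.05 and 4.81 (1.68-fold; adjusted p = 0.0481). Serpinh1 and Serping1, which are outside clade B, differed by -0.43 and 0.45 and were not called (adjusted p of 0.2 and 0.34). Of 11 neutrophil markers measured, 7 lay below the 40th percentile on all muscle arrays and 4 were tested. Of these 4, 0 were called by limma and 0 had an unadjusted p under 0.05. The mean level over the 11 was at most 4.52 on any muscle array. Serpinb1a and Serpinb6a were called without each muscle array, and Serpinb8 in none of those fits (adjusted p from 0.0564 to 0.203).

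Stress responses were represented by a few genes each. Of 21 tested genes for glutathione, metallothionein and the antioxidant factor NRF2, 2 rose (9.52% called against 3.55% of all tested genes). Nqo1, the quinone reductase that is the standard NRF2 target, was at 7.60, 7.50, 6.65 and 6.70 (difference 0.87 ± 0.11; adjusted p = 0.00611), and Gstm1, a glutathione transferase, at 10.53, 10.30, 9.78 and 9.75 (1.57-fold higher; adjusted p = 0.0294). Other NRF2 targets such as Gclm and Srxn1 differed by 0.25 and -0.17 without a call. Of 20 p53 target and growth arrest genes, 2 rose. Eda2r, the receptor of ectodysplasin A2, was at 6.96, 7.21, 5.46 and 5.88 (2.66-fold; adjusted p = 0.00414), and Zmat3, an RNA-binding protein, at 6.13, 6.17, 5.64 and 5.63 (1.43-fold; adjusted p = 0.0337). Of 23 tested genes of the amino acid response and its factor ATF4, 1 rose and 2 fell, and the others were not called. Differences were positive in 12 of the 23 and negative in 11. Slc7a5, a large amino acid transporter, was at 7.30, 7.02, 6.13 and 6.02 (2.11-fold higher; adjusted p = 0.00801), while Vldlr, a lipoprotein receptor, fell 1.65-fold (adjusted p = 0.0178) and Chac1, which degrades glutathione, fell 1.87-fold (adjusted p = 0.0488). Of 22 endoplasmic reticulum chaperone and sensor genes, only the sensor Atf6 was called, 1.49-fold higher (adjusted p = 0.0287). Nqo1, Eda2r and Slc7a5 were called without each muscle array. Gstm1 (adjusted p from 0.0627 to 0.142), Zmat3 (0.0983 to 0.137), Vldlr (0.0676 to 0.0789), Chac1 (0.0502 to 0.203) and Atf6 (0.0644 to 0.145) lost their calls in all 4 fits.

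Kinase cascades and immediate early genes were lower in a few members. Map2k6, the kinase that activates p38, was at 6.77, 6.98, 7.92 and 7.81 (1.99-fold lower; adjusted p = 0.00369). Of 22 dual-specificity phosphatases, which switch off such kinases, Dusp7 and Dusp6 fell 1.95-fold and 1.37-fold and Dusp3 rose 1.45-fold. Among 26 immediate early genes 1 fell. Nr4a1, an orphan nuclear receptor induced by activity, was at 8.76, 8.70, 10.35 and 9.68 (2.44-fold lower; adjusted p = 0.0275). In 12 of the 26 the KI arrays were below the WT arrays without overlap, or 46.2% against 19.9% of all tested genes, and in 3 they were above. Bcl6, a transcriptional repressor, was at 7.40, 6.98, 8.32 and 8.37 (2.22-fold lower; adjusted p = 0.00576), and Tgfb3, a ligand of the TGF-beta family, at 8.93, 8.70, 7.97 and 7.84 (1.89-fold higher; adjusted p = 0.00611). Map2k6, Bcl6 and Tgfb3 were called without each muscle array. Nr4a1 was called without WT 96 only, reaching 0.145, and Dusp7 without KI 94 or WT 95 only, reaching 0.0913. Dusp3 (adjusted p from 0.0713 to 0.187) and Dusp6 (0.131 to 0.155) lost their calls in all 4 fits.

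Potassium channel subunits leaned lower. Of 54 tested potassium channel subunits 3 fell and 0 rose in limma (5.56% called against 3.55% of all tested genes), with 12 at an unadjusted p under 0.05. In 42 the difference was negative, and in 22 (40.7% against 19.9% of all tested genes) the KI arrays were below the WT arrays without overlap. The list's median was -0.14. Kcne1l, an accessory subunit whose name the list's pattern does not take, was called higher, at 5.84, 5.80, 5.08 and 5.33 (1.53-fold; adjusted p = 0.0294), and kept its call without WT 96 only, reaching 0.161. Kcng4, a silent modifier subunit, was at 5.79, 6.13, 7.41 and 7.55 (difference -1.52 ± 0.14; adjusted p = 0.00158). Kcnc1, a fast delayed rectifier, was at 6.85, 6.61, 7.57 and 7.49 (1.74-fold lower; adjusted p = 0.0126), and Kcnd2, an A-type channel, at 4.85, 4.84, 5.55 and 5.4 (1.55-fold lower; adjusted p = 0.0401), its KI arrays being under the 40th percentile. Cacna1s, the voltage sensor of excitation-contraction coupling, was at 9.75, 9.77, 10.23 and 10.37 (1.45-fold lower; adjusted p = 0.0328). A similar one-sided pattern was seen in the ankyrin and SOCS box proteins, substrate adaptors of ubiquitin ligases. There 13 of 16 tested members were negative and 11 (68.8% against 19.9%) lay below without overlap. Asb10 fell 1.74-fold (adjusted p = 0.0199) and Asb2, an adaptor for filamins, was at 9.05, 9.09, 9.79 and 9.82 (1.66-fold lower; adjusted p = 0.0261). Kcng4 was called without each muscle array. Kcnd2 (adjusted p from 0.0863 to 0.204), Cacna1s (0.0947 to 0.128) and Asb2 (0.0894 to 0.119) lost their calls in all 4 fits, and Kcnc1 (0.0701 and 0.0798) and Asb10 (0.0986 and 0.124) lost theirs without KI 97 and without WT 95.

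At the neuromuscular junction, single genes of the postsynaptic membrane were called. The promoters shown here belong to 2 of them that rose, Musk and Chrna1, to Rhou, which rose as well, and to Mylk4, which fell. Capitals mark the E-box CAGCTG, the core bound by myogenic factors. Sequences are the gene's own strand, 5′ to 3′, from RefSeq (GRCm38.p6), and end at the base before the transcription start.
Musk (chr4:58285864-58285929, plus strand): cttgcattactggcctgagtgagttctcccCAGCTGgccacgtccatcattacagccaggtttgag
Chrna1 (chr2:73580347-73580460, minus strand): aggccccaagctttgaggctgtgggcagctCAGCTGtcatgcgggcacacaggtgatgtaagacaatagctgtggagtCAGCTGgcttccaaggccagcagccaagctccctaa
Rhou (chr8:123653888-123653928, plus strand): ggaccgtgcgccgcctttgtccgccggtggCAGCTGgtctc
Mylk4 (chr13:32783993-32784058, minus strand): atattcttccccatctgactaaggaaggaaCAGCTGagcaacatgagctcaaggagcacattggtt
The Chrna1 promoter holds 2 copies and the others 1. Chrnb1, Mylk2, Fhl3 and Casq2 were searched as well and gave no copy before the start, or had no window. Within 250 bases before and 50 after the start, CAGCTG on either strand occurred in 18.9% of the 10996 tested genes with a promoter window, in 21.5% of 293 genes that rose and in 29.8% of 94 that fell. A match is a description of the letters and not a measured binding site.

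Musk, the kinase that organises the postsynaptic membrane, was at 8.68, 8.39, 6.84 and 6.68 (difference 1.77 ± 0.14; adjusted p = 0.0012). Chrna1, the alpha subunit of the acetylcholine receptor, was at 8.46, 8.63, 7.15 and 7.33 (2.48-fold higher; adjusted p = 0.0202). The other subunits, added after their values were seen, did not all follow. Chrnb1, the beta subunit, was at 8.39, 8.68, 7.69 and 7.70 (adjusted p = 0.0258). Chrne, the adult epsilon subunit, was at 7.22, 7.10, 7.69 and 7.56, below in both KI arrays (adjusted p = 0.0598), and Chrng, the fetal gamma subunit, differed by -0.04 (adjusted p = 0.859). In a list of 20 nerve-derived and retrograde signals 0 genes were called by limma, 6 had an unadjusted p under 0.05, and Myog, a myogenic factor that denervation raises, differed by -0.47 (adjusted p = 0.16). Rhou, an atypical GTPase of the cytoskeleton, was at 8.60, 8.50, 7.08 and 6.86 (2.98-fold higher; adjusted p = 0.00127). Musk and Rhou stayed called without each muscle array, Chrna1 lost its call without any 1 (adjusted p from 0.0652 to 0.125), and Chrnb1 was called without KI 94 only, reaching 0.124.

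Many interferon-stimulated genes rose. Of 24 tested, limma called 13 higher and 0 lower, with 20 at an unadjusted p under 0.05. The 13 are 54.2% of the list, against 2.66% of all genes called higher. All 24 differences were positive, the median was 0.67, and in 22 the KI arrays were above the WT arrays without overlap. Over the 25 members measured, tested or not, the mean level was 6.64 and 6.62 in KI and 5.84 and 5.91 in WT. The interferon-stimulated response element, to which the factor ISGF3 and interferon regulatory factors bind, is shown in capitals for genes that rose, where it appears as the reverse complement of GAAA, any 2 bases and GAAA.
Ifit1 (chr19:34640755-34640843, plus strand): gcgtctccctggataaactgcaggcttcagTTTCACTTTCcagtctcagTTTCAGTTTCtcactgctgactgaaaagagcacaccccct
Ifit3 (chr19:34583343-34583446, plus strand): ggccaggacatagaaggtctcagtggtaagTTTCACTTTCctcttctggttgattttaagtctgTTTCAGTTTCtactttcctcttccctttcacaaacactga
Rsad2 (chr12:26456533-26456602, minus strand): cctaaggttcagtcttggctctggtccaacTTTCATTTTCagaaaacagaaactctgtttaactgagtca
Trim30a (chr7:104465194-104465259, minus strand): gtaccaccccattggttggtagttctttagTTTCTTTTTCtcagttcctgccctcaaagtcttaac
Both Ifit promoters hold the element in 2 copies, nearer to the start in Ifit1 (104 and 85 bases before it) than in Ifit3 (156 and 122). Of the 13 genes that rose, 11 had a promoter window and 8 of these (72.7%) held the element on either strand, against 3.38% of all tested genes and 7.17% of all that rose. Irf7, Oasl2 and Ifit2 had a window without it. Of the 24 tested members of the list, called or not, 19 had a window and 11 of these (57.9%) held the element. The list was made of interferon-stimulated genes, so its share above that of all genes describes the list and not the genotype.

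Ifit1, an RNA-binding antiviral protein, was at 6.49, 6.54, 4.72 and 5.19 (difference 1.56 ± 0.25; adjusted p = 0.0148), and Ifit3, its partner, at 7.67, 7.45, 5.76 and 6.57 (2.64-fold higher; adjusted p = 0.0191). Irf7, the regulatory factor that amplifies interferon production, was at 6.77, 6.67, 5.53 and 5.37 (2.41-fold higher; adjusted p = 0.0137). The WT arrays of Ifit3 lay further apart than those of Irf7. Usp18, which removes the ubiquitin-like protein ISG15 and damps the receptor, was at 6.87, 6.85, 5.92 and 5.58 (2.16-fold higher; adjusted p = 0.00628). The RNA sensors Ddx58 and Ifih1 rose 1.89-fold and 1.56-fold, the kinase Eif2ak2, which halts translation on double-stranded RNA, rose 1.62-fold, and Ifitm3, which blocks viral entry, rose 1.66-fold. Rsad2, the antiviral viperin, rose 1.84-fold with a wide gap between KI arrays, at 6.70, 6.06, 5.62 and 5.37 (adjusted p = 0.047). Irf5, a factor of the family not in the list, moved the other way, at 6.03, 6.29, 6.95 and 7.23 (1.90-fold lower; adjusted p = 0.017). Usp18 was the 1 member of the list that was called without each muscle array in turn. The calls of Irf7 (adjusted p from 0.0564 to 0.0685), Ifitm3 (0.0644 to 0.0959) and Ifih1 (0.0938 to 0.191) were lost in all 4 fits. Those of Ifit1, Ifit3 and Ddx58 held without WT 96 only, with values up to 0.0995, 0.0879 and 0.0754. Eif2ak2 was called without KI 94 only (reaching 0.108), Rsad2 without KI 97 only (reaching 0.171), and Irf5 lost its call without KI 94 (0.0826) and WT 96 (0.0796). Leaving out arrays did not turn the sign of any of these.

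Single genes of antigen presentation were called as well. Of 12 genes of class I presentation and the immunoproteasome, 2 rose. H2-Q4 was at 6.42, 6.42, 5.54 and 5.71 (1.74-fold; adjusted p = 0.00942), and B2m, the light chain of class I molecules, at 10.66, 10.44, 9.84 and 10.01 (1.54-fold; adjusted p = 0.0409). Psmb8 and Psmb9, subunits of the immunoproteasome, differed by 0.22 and -0.09 without a call. Of 8 class II genes only H2-Ea rose, at 6.38, 6.91, 4.46 and 4.45, with WT arrays under the 40th percentile. Cd74, the invariant chain, was at 8.04, 8.49, 7.76 and 7.33 (adjusted p = 0.0716), and the other class II genes H2-Aa, H2-Ab1 and H2-Eb1 differed by 0.54, 0.26 and 0.07. Of 6 interferon-inducible GTPases, Irgm1 and Gbp3 rose 1.64-fold and 1.70-fold, while Iigp1 spread from 4.10 to 6.62 with overlap and was not called. Tlr4, the receptor of bacterial lipopolysaccharide, was at 5.95, 6.21, 4.53 and 4.92 (2.56-fold higher; adjusted p = 0.00374), its WT arrays also lying under the 40th percentile.

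Of 13 macrophage markers 0 were called by limma and 6 had an unadjusted p under 0.05. Their differences were positive in 11, with a median of 0.26. In 7 (53.8% against 30.3% of all tested genes) the KI arrays were above the WT arrays without overlap. Over the 15 markers measured, tested or not, the mean was 5.93 and 5.71 in KI and 5.66 and 5.63 in WT. Mrc1, a receptor of resident macrophages, was nearest to a call at 6.41, 6.39, 5.68 and 6.0 (adjusted p = 0.0569). The part of macrophages in the interferon and class II values was not tested. Markers of T and NK cells (3 tested), B cells (5) and neutrophils (4) gave 0 calls by limma, with 2, 1 and 0 at an unadjusted p under 0.05. H2-Ea and Tlr4 were called without each muscle array. B2m (adjusted p from 0.0833 to 0.207) and Gbp3 (0.0825 to 0.0953) lost their calls in all 4 fits. Irgm1 was called without KI 94 only (reaching 0.103), and H2-Q4 was lost without KI 97 (0.0503) and WT 95 (0.0656).

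**Figure D3:**
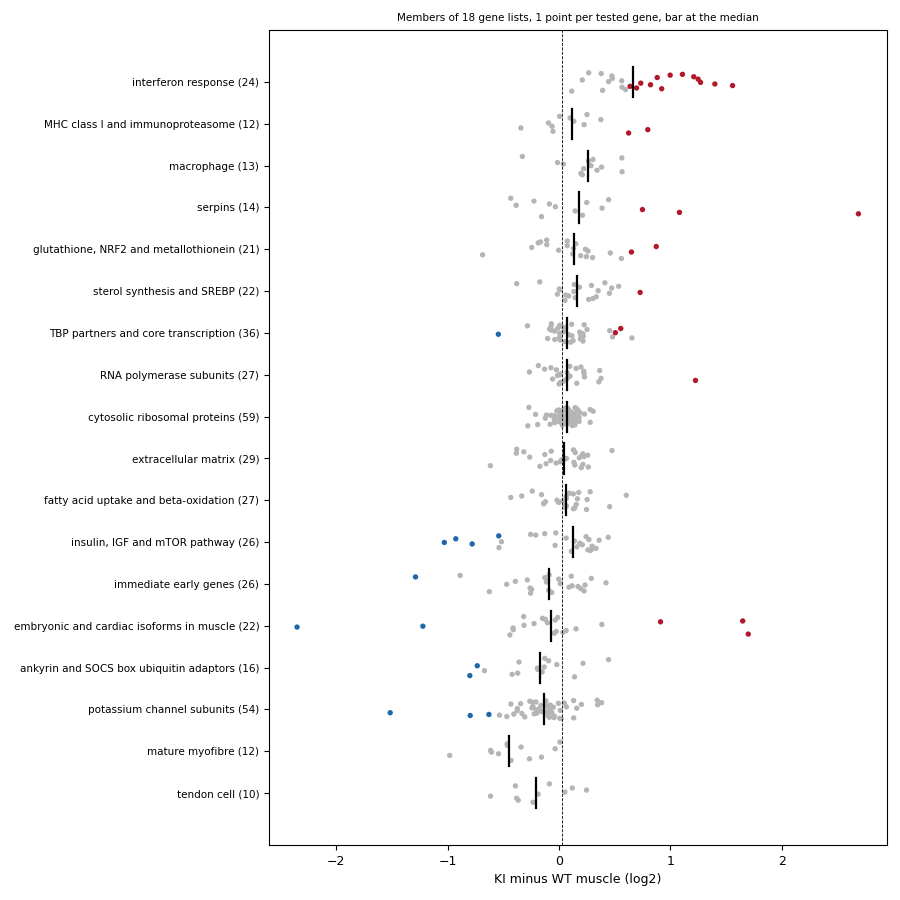
Difference between KI and WT muscle (log2) for the tested members of 18 gene lists, red where called higher, blue where called lower and grey where not called, with a bar at each list's median and a dashed line at the median of all tested genes (0.03). All 24 interferon response genes lie above 0, and the mature myofibre list has its median at -0.45 with 0 calls.

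The core transcription machinery, the partners of TBP, held calls in both directions. Of 27 RNA polymerase subunits only Polr2a, the catalytic subunit of polymerase II, was called. It was at 8.79, 8.78, 7.50 and 7.62 (difference 1.23 ± 0.12; adjusted p = 0.00158), with KI arrays that hardly differed, and it was called without each muscle array in turn. Of 36 genes for TBP partners and general transcription factors, 2 rose and 1 fell (8.33% against 3.55% of all tested genes), and 26 of the 36 differences were positive with a median of 0.08. Taf1 and Taf2, large subunits of TFIID, were at 6.86, 6.99, 6.39 and 6.45 and at 8.0, 7.88, 7.34 and 7.44 (adjusted p of 0.0387 and 0.0378). Nfyb, a subunit of the CCAAT-binding factor NF-Y, was at 7.51, 7.67, 8.16 and 8.11 (1.46-fold lower; adjusted p = 0.0305). Gtf2b, which joins TBP to polymerase II, was at 7.40, 7.34, 7.01 and 6.43 and did not pass (adjusted p = 0.0716). Outside the list, and picked with its value in view, Taf9b, a paralogue of a TFIID subunit on the X chromosome, rose 1.63-fold (adjusted p = 0.0193). Calls of Taf1 (adjusted p from 0.0928 to 0.177), Taf2 (0.0869 to 0.187), Nfyb (0.0771 to 0.148) and Taf9b (0.0649 to 0.108) were lost without any 1 muscle array.

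Because TBP binds TATA elements, promoters of called genes were searched for TATAAA. In the gene's own direction, 45 to 15 bases before the start, the letters occurred in 1.96% of the 10996 tested genes with a window, in 10 of 293 genes that rose (3.41%) and in 3 of 94 that fell (3.19%). Among the 41 genes with a window that rose at least 2-fold, 4 held it there (9.76%), namely Irf7, Jpt1, Opn1mw and Polr2a. Among the 23 with a window that fell at least 2-fold, 1 did (4.35%), namely Sgk1. All are shown here, and capitals mark the element.
Polr2a (chr11:69758634-69758696, minus strand): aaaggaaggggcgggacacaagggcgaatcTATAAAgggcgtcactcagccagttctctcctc
Jpt1 (chr11:115514394-115514445, minus strand): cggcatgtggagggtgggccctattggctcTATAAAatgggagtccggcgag
Irf7 (chr7:141266425-141266483, minus strand): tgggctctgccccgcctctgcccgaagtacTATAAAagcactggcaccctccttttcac
Opn1mw (chrX:74127408-74127465, plus strand): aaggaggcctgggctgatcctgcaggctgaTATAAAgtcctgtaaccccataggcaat
Sgk1 (chr10:21992165-21992222, plus strand): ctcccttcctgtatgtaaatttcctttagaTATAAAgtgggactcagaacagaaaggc
The element begins 33 bases before the start in Polr2a, 22 in Jpt1, 29 in Irf7 and 28 in both Opn1mw and Sgk1. Anywhere in the window and on either strand, TATAAA occurred in 9.52% of tested genes, 14.0% of genes that rose and 12.8% of those that fell. CCAAT was found in 41.6%, 44.7% and 44.7%, and the general E-box CANNTG, which includes CAGCTG, in 68.9%, 76.5% and 75.5%. Jpt1, a microtubule-associated protein, was at 8.26, 8.35, 6.97 and 7.05 (2.45-fold higher; adjusted p = 0.0012), and Opn1mw, a cone opsin, at 5.61, 6.26, 4.54 and 4.18, its WT arrays under the 40th percentile.

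The X chromosome held more calls than the autosomes, a pattern noticed after the values were seen, as were the X-linked genes Acsl4, Maged1 and Maged2. Of 387 tested X-linked genes 30 rose and 1 fell (8.01%), against 464 of 13502 autosomal genes (3.44%). Among the X-linked rises, Hs6st2, Fndc3c1, Opn1mw, Prr32, Igsf1 and Rpgr had both WT arrays under the 40th percentile. These genes were tested through the KI arrays alone. Over all chromosomes this held for 26 of 371 rises. The median difference was 0.12 on the X and 0.02 on the autosomes, and the KI arrays were above the WT arrays without overlap in 45% and 29.9%. The median WT levels were alike, at 6.41 and 6.42. In the cerebellum the median difference of X-linked genes was 0.01. Xist, the RNA that silences 1 X chromosome in females, was at 9.73, 9.56, 9.34 and 9.54 in muscle (adjusted p = 0.392). Hs6st2, a sulphotransferase of heparan sulphate, was at 5.83, 6.04, 4.59 and 4.70 (2.44-fold higher; adjusted p = 0.00179), its WT arrays lying under the 40th percentile. Acsl4, which activates arachidonic acid, was at 9.07, 8.83, 8.05 and 7.97 (1.92-fold higher; adjusted p = 0.00576). Among the X-linked rises named above were also Eda2r, Opn1mw, Pdk3, Taf1 and Taf9b, and the 1 fall was Phka1. Maged1 and Maged2, of the MAGE family, rose 1.74-fold and 1.88-fold. Hs6st2 and Acsl4 were called without each muscle array. Maged1 lost its call in all 4 fits (adjusted p from 0.0564 to 0.126), and Maged2 was called without KI 94 only, reaching 0.15.

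**Figure D4:**
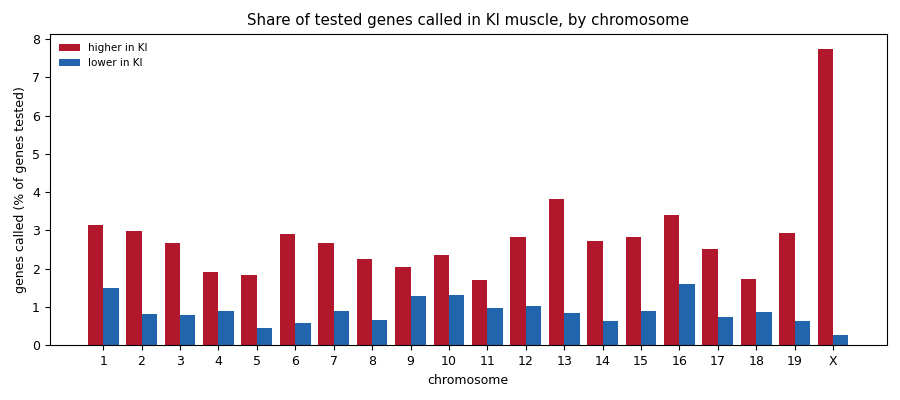
Genes called higher (red) and lower (blue) in KI muscle as a percentage of the genes tested on each chromosome. The X chromosome stands at 7.75% higher, while all autosomes together stand at 2.53%.

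Several lists had no call. In limma 0 of 29 extracellular matrix genes, 0 of 27 genes of fatty acid uptake and oxidation, 0 of 20 of mitochondrial biogenesis, 0 of 59 cytosolic and 0 of 74 mitochondrial ribosomal proteins and 0 of 8 polyglutamine disease genes were called. At an unadjusted p under 0.05 there were 1, 3, 1, 2, 8 and 1, and the medians lay between -0.03 and 0.07. The fatty acid list does not hold every gene of that pathway. Outside it, and picked with their values in view, Cpt1a, the liver-type carnitine transferase, was at 7.73, 7.20, 6.49 and 6.79 (1.77-fold higher; adjusted p = 0.0369), and Ech1, a dienoyl-CoA isomerase, at 10.07, 10.05, 9.51 and 9.32 (1.56-fold higher; adjusted p = 0.0384). Hacl1, a peroxisomal lyase of fatty acid alpha-oxidation, rose 1.53-fold (adjusted p = 0.0195). Cpt1a was called without KI 97 only, reaching 0.204, and Ech1 (adjusted p from 0.107 to 0.138) and Hacl1 (0.0649 to 0.106) lost their calls in all 4 fits. Sterol synthesis leaned upward, with 19 of 22 positive, a median of 0.16 and 1 rise, that of Insig1, the feedback anchor of SREBP processing, at 7.35, 7.22, 6.49 and 6.63 (1.66-fold; adjusted p = 0.0199). Insig1 lost its call without any 1 muscle array (adjusted p from 0.0541 to 0.119). Markers of satellite cells, fibroblasts, endothelium, smooth muscle and Schwann cells had 0 calls by limma, with 2, 4, 0, 0 and 0 at an unadjusted p under 0.05, and medians from -0.05 to 0.07. Of 9 adipocyte markers 7 were negative, with a median of -0.305, and 3 had an unadjusted p under 0.05. In 44.4% the KI arrays were below without overlap, against 19.9% of all tested genes. Among these markers limma called Retn alone, as lower, and the call held without WT 96 only. The part of fat in the fall of Car3 was not tested. Tendon markers differed between the 2 KI arrays rather than between genotypes. Their mean was 7.25 in KI 94, 6.15 in KI 97, 6.85 in WT 95 and 6.91 in WT 96. Fmod, a tendon proteoglycan, was at 9.56, 7.41, 9.04 and 9.17, and Tnmd, tenomodulin, at 7.07, 5.49, 6.37 and 6.36.

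Some large differences that were not called had replicates far apart. Ibsp, a bone sialoprotein, was at 8.59, 3.80, 6.61 and 8.30, and Mmp13, a collagenase of cartilage and bone, at 8.20, 5.01, 6.89 and 8.24. In both, KI 97 was far below the other arrays and KI 94 was within or near the WT range (adjusted p of 0.595 and 0.553). In all, 124 genes differed by at least 1.5-fold without a call, and 5 by at least 2-fold. Among called genes the widest gap between the KI arrays was that of Mettl21e, a methyltransferase of muscle, at 6.29, 5.25, 7.07 and 7.23 (adjusted p = 0.0284). Abra, an actin-binding protein of striated muscle, was at 8.44, 9.36, 10.15 and 10.06 (adjusted p = 0.0375), and Dkk3, a secreted Wnt modulator, at 6.02, 5.18, 7.32 and 6.77 (adjusted p = 0.0233). In these 3 genes the KI arrays still did not overlap WT. Abra and Mettl21e lost their calls without WT 95 (0.179 and 0.119) and WT 96 (both 0.102), and Abra also without KI 94 (0.0984). Dkk3 lost its call without WT 95 (0.143) and KI 97 (0.0862).

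Muscle was then set against the cerebellum of the same genotypes, whose arrays carry the same numbers and may come from the same animals. In the cerebellum 28 of 13641 genes were called (0.205%). Of these, 18 were also called in muscle, in the same direction in all 18, which is 64.3% of the cerebellar calls and 3.64% of the muscle calls. They were mainly interferon-stimulated genes. Usp18 differed by 1.11 in muscle and 2.18 in cerebellum, and Ifitm3 by 0.73 and 1.84, but the difference between tissues did not pass in either (adjusted p of 0.0915 and 0.0599). Gdpd3 rose by 2.97 and 1.35 (adjusted p of the difference 0.0606), and Polr2a by 1.23 and 0.82 (0.327). Snrpe, a core protein of the spliceosome, differed by -0.79 and -0.98 (0.657).

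The difference between the 2 genotype effects passed for 21 of 14708 genes (0.143%), and 20 of these were called in muscle, 14 higher and 6 lower. The muscle genes Casq2, Musk, Mylk4, Fhl3 and Nmrk2 were among them. In Casq2 the muscle effect exceeded the cerebellar one by 2.12, with an effect of -0.42 in cerebellum. Serpinb1a showed the greatest difference at 2.91. Ttc9, a tetratricopeptide protein, was at 7.18, 7.46, 5.65 and 5.36 in muscle and differed by 0.09 in cerebellum. Prepl, a peptidase-like protein that influences neuromuscular transmission, was at 9.59, 9.34, 8.13 and 7.88 in muscle and differed by 0.02 in cerebellum. Stom, stomatin of the cell membrane, was at 8.93, 9.03, 7.64 and 7.75 and differed by -0.24 in cerebellum. Of the 20 differences, Agbl1, Fhl3, Fndc3c1, Mylk4 and Nmrk2 belong to genes that did not pass the filter in cerebellum, so their cerebellar values lie near the array's background. The count of genes that differed fell to 3 without WT muscle replicate 95 or without 96, to 1 without KI cerebellum replicate 97, and to 0 by limma without KI muscle replicate 97, KI cerebellum replicate 94 or either WT cerebellum array.

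**Figure D5:**
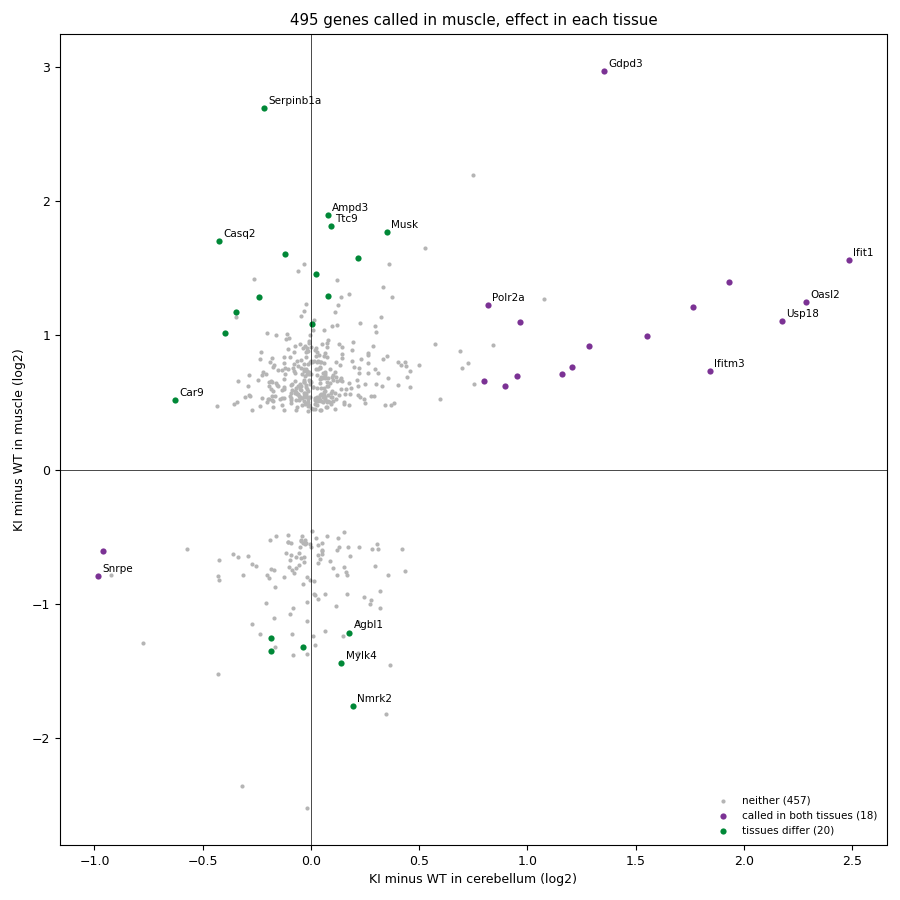
Genotype effect in muscle (vertical, log2) against that in cerebellum (horizontal, log2) for the 495 genes called in muscle. The 18 genes called in both tissues (purple) share their sign, and the 20 whose effects differ between tissues (green) lie near 0 or on the opposite side in cerebellum.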

How the data were processed

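The deposited values are log2 expression values, which the authors made with GCOS and RMA, as the submitters' processing notes state. RMA subtracts background, brings arrays to a common distribution and summarises each probe set. The sources used here give no versions or genome build, and do not say which arrays were normalised together. Shared normalisation can hide a shift common to all genes. Precision is limited by the small number of arrays.

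The table holds 35556 probe sets. The platform annotation gives 1 gene symbol to 21789 of them, several to 1621 and none to 12146, leaving 19938 genes, of which 19856 matched RefSeq. Each gene is represented by its probe set with the highest mean over 8 arrays. From these log2 values, limma 3.58.1 in R 4.3.3 fitted a mean for each of the 4 groups of genotype and tissue on 14708 genes that passed the filter in either tissue, with 4 residual and 5.30 prior degrees of freedom. KI minus WT was adjusted over the 13933 genes tested in muscle, and the muscle effect minus the cerebellum effect over the 14708. The procedure was tested on simulated data. Promoters run from 250 bases before to 50 after a RefSeq start (GRCm38.p6), and a gene with several windows holds a motif where any window does.

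Named genes were drawn from several sets. These hold Tbp and its neighbours, and the 40 largest rises and 40 largest falls called at 1.5-fold or more without overlap. They also hold called members of the gene lists with up to 4 others of smallest p, and marker genes. The last sets are the 10 largest differences not called and the 10 widest gaps between KI arrays. Not every gene of these sets is described, so an unnamed gene, such as Mir133a-1, may have been called or have changed greatly. Further genes are named as picked with their values in view. The members and lists were chosen with earlier results of these data known, so counts over a list are descriptions. Alternatives changed the filter, the choice of probe set, the normalisation, the arrays in the fit, the variance model, array weights, the threshold and a block by title number, and each array was left out in turn.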

Additional observations from a re-analysis of the deposited data

Results flagged for a closer look

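For 20 genes the genotype effect in muscle differed from that in the cerebellum in limma's test of the difference between the tissues, at an adjusted p under 0.05 over 14708 genes, and the gene was also called in muscle. Values are the muscle effect minus the cerebellum effect on the log2 scale. Among genes that rose in muscle, it was 2.91 for Serpinb1a, 2.12 for Casq2, 1.82 for Ampd3, 1.72 for both Ttc9 and Lix1 and 1.53 for Stom. It was 1.52 for Fndc3c1, a fibronectin domain protein, 1.44 for Prepl, 1.42 for Musk and 1.41 for Rnf122, a RING finger protein. It was 1.36 for Rhou, 1.21 for Jpt1, 1.14 for Car9, a carbonic anhydrase, and 1.08 for Serpinb6a. Among genes that fell, it was -1.96 for Nmrk2, -1.58 for Mylk4, -1.39 for Agbl1, a carboxypeptidase, -1.29 for Fhl3, -1.17 for Mical2 and -1.06 for Slc25a25. Car9 differed by 0.52 in muscle, where it lost its call without any 1 muscle array (adjusted p from 0.102 to 0.157), and by -0.63 in cerebellum. In Lix1, Fndc3c1 and Car9 both WT muscle arrays lay under the 40th percentile. Groups of 2 arrays are too small for a test of a single deviating array.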

How the results depend on the processing

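Counts of called genes moved with several choices. Of the 175 called genes chosen for naming, 0 reversed and 42 were called in all 20 alternatives that kept the threshold. Genes not tested with the filter at the 60th percentile could not reach all 20. The 495 calls became 246 without a filter on low values (177 higher, 69 lower), 155 in the muscle arrays alone (115 and 40), 84 after quantile normalisation within muscle (51 and 33) and 995 at an adjusted p under 0.1 (733 and 262). The 84 calls within the gene lists became 52, 38, 26 and 135 under the same settings. Leaving out single arrays gave 105 to 385 calls, 66 to 288 higher and 39 to 97 lower, and 27 to 69 within the lists. The lone array of a group was then assumed to vary like the other groups. The 21 differences between tissues became 63 with trend and robust settings and 0 to 23 with an array left out. Within 1.5 times the main count were 376 calls after quantile normalisation of 8 arrays (66.2% higher), 589 with arrays centred on medians (80.5% higher), 397 with array weights, 706 with trend and robust settings, 633 at the 60th percentile and, chosen after seeing the data, 553 in a fit on genes tested in muscle alone. Causes were not tested.

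No paired analysis was possible because KI and WT muscle share no title number. With the number as a random replicate block over both tissues, 494 genes were called in muscle (370 higher, 124 lower), 84 within the lists and 18 for the difference (consensus correlation -0.0733).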

Other observations

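Further called genes, chosen after their values were seen, extend the account of glucose use. Levels stand in the order KI 94, KI 97, WT 95 and WT 96. Grb14, an adaptor that inhibits the insulin receptor, was at 8.80, 8.78, 7.67 and 7.83 (2.06-fold higher; adjusted p = 0.00911). Pgam2, the muscle phosphoglycerate mutase of glycolysis, was at 9.60, 10.02, 10.67 and 10.70 (1.83-fold lower; adjusted p = 0.017). Gpd1, glycerol-3-phosphate dehydrogenase, was at 9.79, 9.77, 10.46 and 10.66 (1.72-fold lower; adjusted p = 0.011). In all 3 genes the genotypes did not overlap. Slc16a3, the lactate exporter MCT4 of glycolytic fibres, was at 8.35, 8.53, 9.03 and 9.41 (1.72-fold lower; adjusted p = 0.0234), and Gpt2, a mitochondrial alanine transaminase, fell 1.77-fold (adjusted p = 0.0219). Grb14 lost its call without WT 95 (0.0673), Gpd1 without KI 97 (0.0573) or WT 96 (0.053). Pgam2 was called without KI 97 only, Slc16a3 without WT 95 only and Gpt2 without KI 94 only, reaching 0.0879, 0.112 and 0.104.

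Regulators and secreted factors outside the lists moved as well. Runx1, a transcription factor that denervation is known to raise in muscle, was at 7.29, 7.07, 6.29 and 6.16 (1.93-fold higher; adjusted p = 0.00576). Mustn1, a nuclear protein of regenerating muscle, was at 11.38, 11.42, 10.13 and 10.48 (2.13-fold; adjusted p = 0.00628). Rxrg, a retinoid X receptor, was at 8.27, 8.22, 9.04 and 9.01 (1.72-fold lower; adjusted p = 0.00704). Each of the 3 had close KI arrays and no overlap with WT. Inha, the inhibin alpha chain, was at 6.01, 5.98, 7.10 and 7.10 (2.15-fold lower; adjusted p = 0.00158), and Gdap1, a protein of mitochondrial and peroxisomal fission, at 5.32, 5.05, 6.27 and 6.57 (2.35-fold lower; adjusted p = 0.00414). Pla2g7, which inactivates platelet-activating factor, was at 6.91, 7.02, 8.40 and 7.97 (2.33-fold lower; adjusted p = 0.00419), and Peg10, an imprinted gene derived from a retrotransposon, at 6.52, 6.68, 5.39 and 5.36 (2.34-fold higher; adjusted p = 0.00158). Lonp2, the peroxisomal Lon protease, was at 8.80, 8.87, 7.82 and 7.93 (1.94-fold higher; adjusted p = 0.00628). The 8 genes of this paragraph were called without each muscle array in turn.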
